A study of Mus musculus with 6 samples.

Results

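The regions described here are stretches of DNA that were open in all 3 ATAC-seq libraries of normal mouse urothelium, the lining of the bladder. Each library had its own deposited list of peaks, and the 50000 intervals of highest fold over the local background were kept from each list. Kept intervals that overlapped by at least 1 bp were merged into 61203 regions, of which 38976 (63.7%) held a kept interval from every library. These 38976 regions are called members. The fold chose them, so their folds, shares and counts are descriptions and no test was made of them. Merging the lists of all 6 libraries of the series in the same way gave 70492 regions.

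ATAC-seq uses a transposase that cuts and tags accessible DNA, so that reads pile up where chromatin is open. The study made 3 libraries from Stag2-WT mice and 3 from Stag2-KO mice, and Stag2 encodes 1 of the variable subunits of cohesin, which folds chromatin into loops. The Stag2-WT mice received TMX in their food, as the KO mice did, and their cells were collected 1 week after induction. Urothelium was peeled from the bladder, live GFP+ DAPI- cells were sorted, 50000 cells per condition were used, and all libraries belonged to batch 1. The labels call the libraries biological replicates. They give neither the number of animals per library, nor their sex, nor the promoter that drives GFP or the recombinase. Each value is an average over sorted cells, so fewer open cells and less open DNA per cell cannot be told apart.

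The urothelium is a layered epithelium with basal cells on a basement membrane, intermediate cells, and umbrella cells that face the urine. Umbrella cells carry plaques of uroplakins, a family of membrane proteins that make the surface hard to permeate, and tight junctions seal the cells to each other. Open chromatin is typically found at the start sites of active genes and of many genes used by every cell, and at distal enhancers, which differ more between cell types.

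Sequence at the starts of a few genes shows the DNA that these regions cover. Upk3a encodes a uroplakin, Elf3 an ETS factor of epithelia, Krt13 a keratin of stratified epithelia, Ccnb2 a mitotic cyclin and Rplp0 a ribosomal protein, and each had a member at its start. Alb, the albumin gene of liver, had no listed interval there and is shown for contrast. Each run is the RefSeq window of GRCm38.p6, 250 bases before to 50 after the start, 5′ to 3′ on the gene's strand. Capitals mark matches on either strand to the CCAAT box (CCAAT), the GC box (GGGCGG), the TATA box (TATAAA), the ETS core (CCGGAAG), the NRF1 site and the CHR element (TTTGAA).
Upk3a: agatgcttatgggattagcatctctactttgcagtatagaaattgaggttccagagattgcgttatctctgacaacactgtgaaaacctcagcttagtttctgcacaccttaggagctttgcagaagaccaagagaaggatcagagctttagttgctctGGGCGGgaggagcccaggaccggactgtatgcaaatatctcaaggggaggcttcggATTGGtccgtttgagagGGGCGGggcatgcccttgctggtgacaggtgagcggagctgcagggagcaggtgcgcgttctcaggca
Elf3: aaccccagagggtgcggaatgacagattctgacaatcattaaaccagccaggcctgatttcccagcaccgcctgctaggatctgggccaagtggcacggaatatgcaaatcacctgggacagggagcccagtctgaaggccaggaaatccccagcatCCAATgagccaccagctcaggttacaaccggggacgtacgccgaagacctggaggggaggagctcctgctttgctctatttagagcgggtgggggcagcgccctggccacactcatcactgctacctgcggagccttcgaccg
Krt13: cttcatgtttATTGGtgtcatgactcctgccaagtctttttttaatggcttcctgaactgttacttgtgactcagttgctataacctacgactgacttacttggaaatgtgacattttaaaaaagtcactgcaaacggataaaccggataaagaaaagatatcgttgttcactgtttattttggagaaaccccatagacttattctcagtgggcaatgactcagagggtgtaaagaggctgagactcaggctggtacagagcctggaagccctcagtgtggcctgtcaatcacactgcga
Ccnb2: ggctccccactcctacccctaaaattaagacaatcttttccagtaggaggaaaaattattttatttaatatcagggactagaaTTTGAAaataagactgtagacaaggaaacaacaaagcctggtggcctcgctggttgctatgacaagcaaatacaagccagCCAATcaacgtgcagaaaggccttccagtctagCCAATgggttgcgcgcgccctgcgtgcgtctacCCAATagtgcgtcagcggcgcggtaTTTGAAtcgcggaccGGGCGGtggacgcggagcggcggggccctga
Rplp0: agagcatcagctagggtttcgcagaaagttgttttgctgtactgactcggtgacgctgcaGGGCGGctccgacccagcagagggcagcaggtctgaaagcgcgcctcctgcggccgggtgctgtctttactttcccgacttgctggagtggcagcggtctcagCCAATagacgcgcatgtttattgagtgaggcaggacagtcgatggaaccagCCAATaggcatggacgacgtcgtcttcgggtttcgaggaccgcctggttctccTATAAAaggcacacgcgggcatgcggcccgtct
Alb: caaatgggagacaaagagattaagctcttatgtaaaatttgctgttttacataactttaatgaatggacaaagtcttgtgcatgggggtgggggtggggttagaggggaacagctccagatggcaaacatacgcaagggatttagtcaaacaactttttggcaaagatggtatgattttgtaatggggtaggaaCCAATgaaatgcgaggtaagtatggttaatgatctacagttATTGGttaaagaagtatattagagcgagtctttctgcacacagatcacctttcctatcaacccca
The windows lie at chr15:85016891-85017190 on the plus strand (Upk3a), chr1:135258423-135258722 on the minus strand (Elf3) and chr11:100120528-100120827 on the minus strand (Krt13). Those of the other genes lie at chr9:70421505-70421804 on the minus strand (Ccnb2), chr5:115559217-115559516 on the plus strand (Rplp0) and chr5:90460620-90460919 on the plus strand (Alb). The Ccnb2 window held 6 matches, among them 3 CCAAT boxes and 2 CHR elements, the Upk3a window held 3 and the Elf3 and Krt13 windows 1 each. The Alb window held 2 matches, both CCAAT boxes, and its GC content was 40%, against 52.3% for Upk3a, 59% for Elf3 and 42.7% for Krt13. A match is only a run of letters, and a CCAAT box was found in 38.2% of all 21238 promoter windows in the RefSeq table.

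The members at these starts differed in strength. Upk3a (chr15:85016768-85017301, mm10) had folds of 14.03, 23.50 and 18.54 in replicates 1, 2 and 3. Ccnb2 (chr9:70421271-70421776) had folds of 27.61, 41.89 and 32.24, the highest of the 5 in every library. The Elf3 region (chr1:135258212-135258835) had folds of 13.19, 14.16 and 13.86, yet its summit coverage was 823, 1898 and 1180 reads, the highest of the 5 in replicates 2 and 3 (the Rplp0 summit had 833, 1656 and 1004). Summit coverage and local background were recovered from each interval's fold and p, as whole read counts and as the expected coverage nearby. For Elf3 the local background was 61.5, 133 and 84.2 reads, and for Ccnb2 it was 14.7, 26.8 and 16.2 reads. The fold divides summit coverage by local background, so a high local background lowers the fold of a well covered start.

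The end of the kept list fell at a fold of 7.33 in replicate 1, 12.06 in replicate 2 and 8.80 in replicate 3. Replicate 2 stood apart from the other libraries, with a median fold over members of 21.94 against 13.32 in replicate 1 and 16.08 in replicate 3, and a median summit coverage of 348 reads against 183 and 223. Its background coverage, the lowest value the caller used, was 6.37 reads against 7.59 and 6.90. Between 78.1% and 78.3% of each library's kept intervals fell in members. The whole lists held 210507, 213589 and 205463 peaks, or 168561, 174275 and 165214 distinct intervals. Folds are therefore set beside each other within a library, and between libraries only as ranks.

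A region at the start of Krt23, a keratin gene, lay just inside the list end (chr11:99492959-99493574), at rank 50000 in replicate 2 with a fold of 12.06. Regions near Nsmce2, at the start of Dipk1a, near Rab11fip1 and near Plcb2 were the next inside, each at a fold of 12.06 in replicate 2 or 7.33 in replicate 1. Just outside lay a region 362024 bp from the start of Irs2, an insulin receptor substrate, at rank 50001 in replicate 2 with the same fold of 12.06. Regions near Scn8a, Egfl7, Efcab1 and at the start of Urgcp followed at ranks 50002 to 50004. Of the 10439 regions kept in only 2 libraries, 99.4% to 99.8% also had an interval lower down in the list of the missing library, at a median rank of 56315 to 59007 there. For these regions, absence from the members was thus mostly a matter of rank. The 11788 regions kept in 1 library were not examined in this way.

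Members at gene starts were wide and deeply covered. A gene start here is a window of 500 bp on either side of the start of a protein-coding gene. Where the promoter table had no start for a gene, both ends of its span were used. Of the members, 8626 (22.1%) overlapped such a window, 15857 (40.7%) lay elsewhere inside a gene span and 14493 (37.2%) lay between genes. Among the 22227 regions kept in only 1 or 2 libraries, 9.58% overlapped a gene start. The median width was 927 bp at gene starts, 514 bp in gene bodies and 511 bp between genes, and 73.1%, 22.4% and 22.6% of these members had more than 1 summit. Over all members the median width was 573 bp, and regions of 1 or 2 libraries had a median of 414 bp.

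All members were chosen by fold, and their median fold barely separated the 3 positions, while coverage, which the choice did not use directly, did. At gene starts the median folds were 14.93, 21.34 and 16.50 in replicates 1, 2 and 3, and between genes they were 13.14, 22.52 and 16.20. The median summit coverage was 316, 659 and 360 reads at gene starts, against 158, 284 and 192 reads between genes. The median local background was 19.7, 29.6 and 19.9 reads at gene starts, against 10.3, 10.8 and 10.2 reads between genes. Members at gene starts were thus covered by more reads in every library and also sat in more covered surroundings. In replicate 1, 18.6% of gene-start members were among the library's best 5000 by fold, but only 8.07% were in replicate 2. For members between genes these shares were 12.1% and 15.1%, so the order of the 2 kinds of region differed between these libraries. In replicate 3 both kinds had 13.5%.

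**Figure D1:**
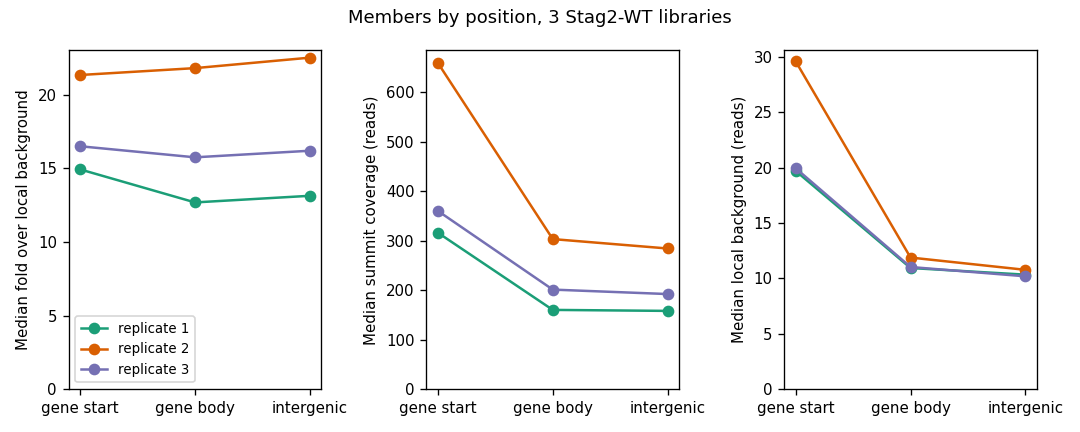
Medians over members at gene starts (8626), in gene bodies (15857) and between genes (14493) in each Stag2-WT library; the panels show the fold over the local background (a ratio), the summit coverage and the local background (both in reads), and lines join the values of 1 library. Coverage and local background are highest at gene starts in all 3 libraries, while the fold, by which members were chosen, hardly differs between positions.

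Outside gene starts, the median distance of a member to the nearest start was 27166 bp over 30350 regions. The share of members was 3.04% at 500 to 2000 bp and 20.8% at 20000 to 50000 bp. It was 11.9% at 100000 to 500000 bp, and 332 members (0.852%) lay more than 500000 bp from any start. The member farthest from a start lay 2140123 bp from that of Cdh20, a cadherin gene, and is described below among the strongest. Distant members had folds like those of other members, all chosen by fold, but lower coverage. Beyond 500000 bp the median folds were 13.40, 23.21 and 17.10, and the median coverage was 127, 200 and 152 reads in replicates 1, 2 and 3.

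**Figure D2:**
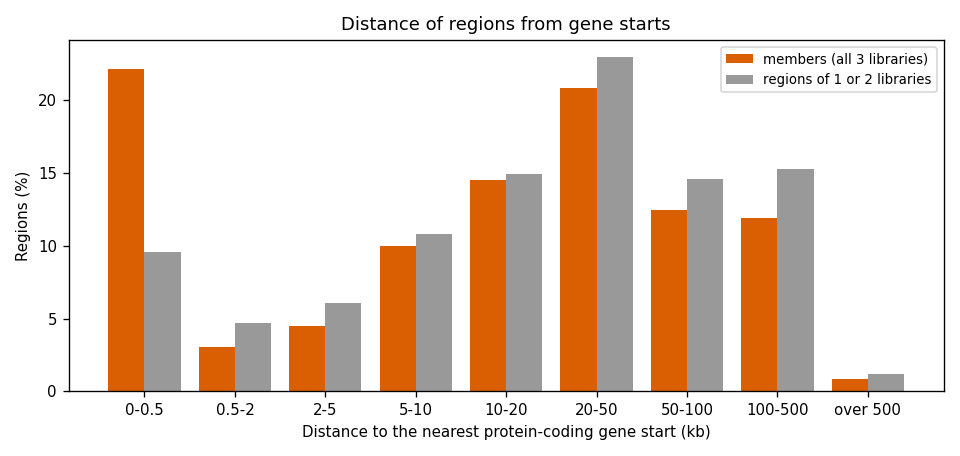
Share of regions (percent) by distance to the nearest protein-coding gene start (kb), for the 38976 members and the 22227 regions kept in 1 or 2 libraries. Members have 22.1% of their regions within 500 bp of a start, against 9.58% of the other regions, and lower shares in every other bin.

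Of the 21887 protein-coding genes, 9349 (42.7%) had a member at a start. Because a high local background lowers the fold, each list of genes is also given with 2 other readings. Among the library's best 50000 intervals by p, 47.8% of all genes had an interval at the start in each of the 3 lists. Any listed interval, in all 3 whole lists, was found at the start of 64.1% of genes. Genes that were among the best by p without holding a member numbered 1440, and their median coverage was 207, 413 and 231 reads over a local background of 26.9, 41.1 and 28.1 reads. The 9315 genes that held a member and were listed in all 3 had 329, 676 and 371 reads over 20.3, 30.6 and 20.6 reads. These 1440 starts were thus open without a member. A further 3276 genes were listed in all 3 libraries and were neither, and 7856 were not listed in all 3.

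The uroplakin genes had an open start in every library. Members lay at the starts of 4 of 5 (80%, against 42.7% of all genes). They were Upk1b (chr16:38800030-38800655), Upk2 (chr9:44454202-44455409), Upk3a and Upk3b (chr5:136038221-136039223). All 5 were among the best by p in each library, against 47.8% of all genes. Upk1b, the tetraspanin that pairs with uroplakin 3 proteins, had folds of 10.05, 17.33 and 10.96. Upk2, which pairs with uroplakin 1a, had folds of 11.19, 12.31 and 11.51, and Upk3b had 12.39, 20.38 and 17.09. Upk1a, the other tetraspanin, had folds of 10.25, 11.87 and 12.67 and missed the list end in replicate 2, where its rank was 50767. Upk2 had the highest local background of the 5 in each library, at 28.4, 55.3 and 38.5 reads.

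Among luminal transcription factors, which drive the differentiated urothelial state, 4 of 15 held a member (26.7%, against 42.7% of all genes). Among the best by p were 12 (80%, against 47.8%), and 15 had a listed interval in all 3 libraries (100%, against 64.1%). The holders were Elf3, the zinc-finger factor Klf5 (chr14:99298236-99298812) and the grainyhead factors Grhl1 (chr12:24571866-24572790) and Grhl2 (chr15:37232557-37233482). Klf5 had folds of 17.25, 24.43 and 19.29 with 712, 1996 and 920 reads at the summit. Grhl1 had folds of 17.95, 24.50 and 18.57, and Grhl2 had 11.64, 14.33 and 11.35. Their summits had 541 and 386 reads in replicate 1, where the median over members was 183.

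Other known luminal regulators lay below the list end by fold in at least 1 library. Gata3, a zinc-finger factor of urothelium, had folds of 5.59, 8.10 and 6.87 with 257, 663 and 368 reads over a local background of 45.1, 81.0 and 52.7 reads. Foxa1, a forkhead pioneer factor, had folds of 11.29, 10.36 and 10.71, kept in replicates 1 and 3 and missed in replicate 2, with 577, 1078 and 713 reads. Pparg, the nuclear receptor linked to umbrella cell differentiation, had folds of 6.33, 9.19 and 7.35 with 156, 426 and 215 reads, below the median over listed gene starts (236, 480 and 262 reads). All 3 genes were among the best 50000 by p in each library. Tbx3, a T-box repressor, had 525, 1028 and 608 reads and was likewise not a member. Rarg, Klf4, Ovol1 and Ehf were also among the best by p without a member, with 237 to 367 reads in replicate 1. Grhl3, Rxra and Tbx2 were outside the best by p in at least 1 library, and Rxra, the partner of Pparg, was weak at folds of 1.49, 4.21 and 2.88. Members were still assigned to most of these genes, where a member counts for the gene whose span holds it or whose start is nearest within 50000 bp. Grhl2 had 14 assigned members over a span of 131 kb, and Pparg had 6 over 130 kb. Gata3, Ehf and Grhl1 had 7 each over 30.9, 39.8 and 45.2 kb, while Rarg and Ovol1 had none. Over all genes the median was 1 member and the median span 17.2 kb. A longer span can hold more members, and the counts were not adjusted for span.

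**Figure D3:**
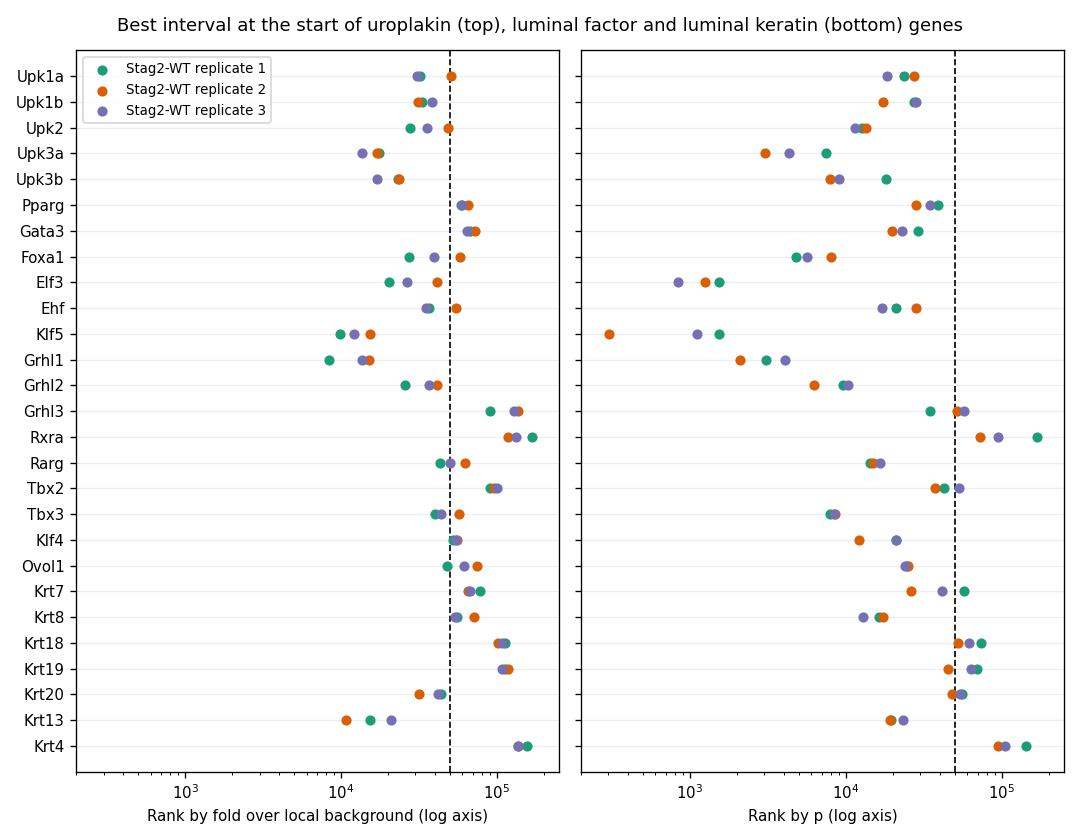
Rank of the best interval at the start of each uroplakin, luminal transcription factor and luminal keratin gene, by fold over the local background (left) and by p (right), in each Stag2-WT library; both axes are log axes, lower is stronger, and the dashed line is the list end at rank 50000. Pparg, Gata3 and Klf4 lie right of the line by fold and left of it by p in all 3 libraries.

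The luminal keratins, the intermediate filaments of the upper layers, differed in local background. Krt13 (chr11:100120263-100121012) had folds of 14.87, 27.30 and 15.66 over a local background of 11.9, 11.8 and 12.5 reads. Krt20 (chr11:99437897-99438472), a marker of umbrella cells, had folds of 8.15, 17.21 and 10.16 but only 69, 136 and 84 reads at its summit. These were the 2 holders of 7 (28.6%, against 42.7% of all genes). Among the best by p were also only 2 (28.6%, against 47.8%), Krt13 and Krt8. Krt20 missed that list in replicates 1 and 3, at p ranks of 55455 and 53722. All 7 were listed in all 3 libraries (100%, against 64.1%). Krt8, the partner of Krt18 in simple epithelia, had 385, 744 and 526 reads over 56.3, 89.6 and 63.0 reads, hence folds of 6.74, 8.22 and 8.23. Krt4 was weakest, with folds of 2.21, 3.42 and 2.78. Krt20 was thus a member with fewer reads than Krt8, which was not one.

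Of 15 basal urothelial genes, 5 (33.3%) held a member and 8 (53.3%) were among the best by p. Listed in all 3 libraries were 13 (86.7%). Over all genes these shares were 42.7%, 47.8% and 64.1%. The holders included Cd44, a hyaluronan receptor, Dst, which ties keratin to hemidesmosomes, and Lama3 and Lamb3, which encode laminin chains of epithelial basement membranes. Lama3 (chr18:12333433-12334571) had folds of 11.84, 26.85 and 17.41, and Lamb3 (chr1:193301227-193302322) had 9.22, 13.71 and 11.52. Cd44 (chr2:102900558-102901847) had 15.47, 19.20 and 14.98. Lama3 and Lamb3 were thus members in all 3 libraries, while the basal keratins were weak. Krt5 had folds of 2.31, 3.94 and 3.05 with 81, 270 and 142 reads, and Krt14 had an interval at its start in replicate 3 alone, at a fold of 2.27. Krt15 was among the best by p with folds of 6.14, 7.46 and 5.94. Trp63, the p53 relative that maintains basal cells, had no listed interval at either end of its span in any library. Yet 9 members were assigned to this gene, whose span is 208 kb. Only the ends of its annotated span were examined as starts, so an inner promoter would be counted among these 9.

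By fold, the shares of junction genes were nearer to that of all genes (42.7%), and by p they stood above the 47.8% of all genes. Of 14 tight junction genes, 8 (57.1%) held a member. Among the best by p were 10 (71.4%, against 47.8% of all genes), and all 14 were listed in every library. F11r (chr1:171437214-171437958), a junctional adhesion molecule, had folds of 14.07, 18.52 and 15.92 with 749, 1641 and 975 reads. Marveld2, the tricellular junction protein, had 15.94, 26.32 and 17.77, and Cldn12, a claudin, had 14.36, 22.91 and 16.91. Cldn4, a claudin of tight epithelia, was a non-member at 688, 1436 and 952 reads over a local background of 83.5, 150 and 111 reads. Tjp1, which encodes the scaffold ZO-1, had folds of only 4.40, 8.45 and 4.16 at its start. It had 8 assigned members over a span of 232 kb. Of 14 desmosome and adherens genes, 7 (50%) held a member and 10 (71.4%) were among the best by p. All 14 of these were also listed in every library. Among the holders was Cdh1, which encodes E-cadherin, with folds of 14.97, 22.85 and 16.79 (chr8:106603113-106603545). Jup, plakoglobin, had 1002, 2059 and 1227 reads and folds of 10.26, 12.39 and 10.59, close to the list end. Dsc3, a desmocollin of the lower layers, varied most, at ranks of 51976, 6346 and 21676 with folds of 7.10, 31.00 and 15.38. No start was in the promoter table for Dsc3, so the span end examined may be its 3′ end. The replicate 1 value of Dsc3 lay below the list end at the window, and its region qualified there through another interval.

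The AP-1 genes, immediate early factors that respond to growth signals and stress, showed the effect of the local background most clearly. Fosl1 was the only holder of 11 (9.09%, against 42.7% of all genes), with folds of 10.34, 15.22 and 13.32 (chr19:5447424-5448040). Among the best by p were 9 (81.8%, against 47.8%). Jun had 885, 1478 and 910 reads over 119, 191 and 130 reads, which gave folds of 7.39, 7.69 and 6.96. Fos had 687, 1254 and 725 reads and folds of 5.17, 6.29 and 5.04. Fosl2 missed the list end in replicate 2 alone, at a fold of 12.05 against the end at 12.06. Chosen by p or by summit coverage instead of fold, the regions held 9 of the 11 starts in both cases. The median local background at listed AP-1 starts was 74.4, 127 and 80.5 reads, against 18.7, 27.2 and 18.8 reads over all listed genes.

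Proliferation genes had the highest share of the 19 lists. Members lay at the starts of 18 of 20 (90%, against 42.7% of all genes), the 2 others being Mcm2 and Ccne1. Among the best by p were also 18 (90%, against 47.8%). Ccna2, a cyclin of S phase, counts as a holder although its window was listed in replicate 1 alone, because its region extends beyond the window. Mcm3 (chr1:20819931-20820595), a subunit of the replicative helicase, had folds of 31.56, 37.47 and 34.70. Cdk1 (chr10:69352651-69353328), the mitotic kinase, had 27.09, 39.12 and 30.54, and Aurka had 24.29, 32.44 and 26.06. Mki67, the antigen of cycling cells, had 16.19, 27.94 and 20.16. Mcm2 had 254, 626 and 316 reads over 41.1, 73.0 and 50.2 reads and folds of 6.06, 8.48 and 6.19, so it fell below the end. The medians over listed starts of the list were 17.77, 27.94 and 20.16, against 11.94, 17.27 and 13.32 over all genes. An open start does not show that these genes were transcribed.

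DREAM is a repressor of cell cycle genes during quiescence. Of 13 genes for its subunits and linked factors, 9 held a member at a start (69.2%, against 42.7% of all genes). Mybl2, a linked factor that takes part in activating cell cycle genes, had folds of 22.95, 30.76 and 24.00 (chr2:163054214-163054825). E2f4, the repressive E2F, had 17.17, 31.69 and 17.89. Dyrk1a, the kinase that promotes DREAM assembly, had the lowest fold of the list in each library, at most 5.56. It had 105, 239 and 86 reads, and 9 assigned members over a span of 126 kb. Of 11 genes of a list of cohesin and Ctcf, 8 (72.7%, against 42.7%) held a member. Stag2 itself (chrX:42148723-42149380) had folds of 10.77, 16.40 and 13.27 with 227, 648 and 302 reads, and its paralog Stag1 (chr9:100642277-100643738) had folds of 12.84, 16.85 and 14.09 with 573, 1363 and 652 reads. Smc3, a core ring subunit, had folds of 23.80, 31.85 and 25.90, and Ctcf, the factor at loop anchors, had 9.14, 14.56 and 11.43. Rad21 and Nipbl had no listed interval at either end of their spans, which are the positions examined for them.

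Housekeeping genes gave 9 of 15 holders (60%, against 42.7% of all genes), and those without a member again included starts with a high local background. Rplp0 had folds of 22.34, 26.99 and 23.77, Pgk1, a glycolytic enzyme, had 20.06, 25.23 and 21.39, and Tbp had 16.80, 23.33 and 18.18. Gapdh had 407, 721 and 415 reads over 47.6, 69.7 and 49.8 reads and folds of 8.39, 10.22 and 8.19, and so lay in the kept list of replicate 1 alone. Actb, with either end of its span examined, had folds of 2.56, 3.88 and 3.84 at a local background of 76.6, 150 and 108 reads.

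Marker genes of other cell types were rarely members. Over 8 lists of fibroblast, smooth muscle, endothelial, immune, nerve and glia, cornified epidermis, liver and germline genes, 9 of 76 (11.8%) held a member, 7 (9.21%) were among the best by p and 34 (44.7%) were listed in all 3 libraries. The 6 urothelial lists together had 30 of 70 (42.9%), 47 (67.1%) and 68 (97.1%). Over all genes the shares were 42.7%, 47.8% and 64.1%. By fold at this list length the urothelial share was therefore at the background, and by p and by listing it stood above it. This depended on the list length. By fold with 25000 intervals per library it was 14.3% against 22.9% of all genes, and with 100000 it was 80% against 58.3%. With regions chosen by summit coverage, an alternative added after the data were seen, the urothelial share was 81.4%, that of the other cell types 13.2% and that of all genes 48.9%. A start was in the promoter table for 39 of the 70 urothelial genes and 52 of the 76 others, and with only these genes the shares by fold were 38.5% and 7.69%.

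No fibroblast, endothelial or liver list gene held a member, although 7 of 10, 5 of 10 and 1 of 8 had listed intervals in all 3 libraries. Col3a1, a fibroblast collagen, had 116, 54 and 40 reads at ranks of 18822, 77114 and 81520, and so lay in the kept list of replicate 1. Dcn of fibroblasts was also kept there, at rank 45661. Col1a1, another collagen, had 165, 198 and 180 reads and just missed the list end in replicate 3, at rank 50226. Kdr, the endothelial VEGF receptor, had 25, 58 and 27 reads, and Pecam1 was listed in replicate 3 alone. Ptprc, the CD45 gene of all white blood cells, Lyz2 of macrophages and Alb, Apob and Fgb of liver had no interval at their starts in any library. The presence of small numbers of stromal cells among the sorted cells was not tested.

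Exceptions among the 9 holders included genes of several cell types. Spi1, a factor of myeloid cells, had folds of 19.33, 32.75 and 25.49 and 299, 780 and 413 reads (chr2:91114979-91115516), at an end of its span whose strand the table does not give. Csf1r, the macrophage growth factor receptor, had 8.40, 17.08 and 14.40, also at a span end. Tubb3, a neuronal tubulin, had 9.05, 13.11 and 9.04, and Sprr1a, a cornified envelope protein, had 18.10, 19.33 and 17.31. Smtn, smoothelin, had 11.55, 13.84 and 13.13 with 448, 699 and 450 reads. Myh11, smooth muscle myosin, had 15.48, 3.21 and 19.12 at its window and Dazl, a germ cell gene, was listed there in replicate 2 alone, at 31.75. For Myh11 and Dazl the region counts as a member because it extends beyond the window. For Spi1, Csf1r and Myh11, the end examined may be the 3′ end.

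**Figure D4:**
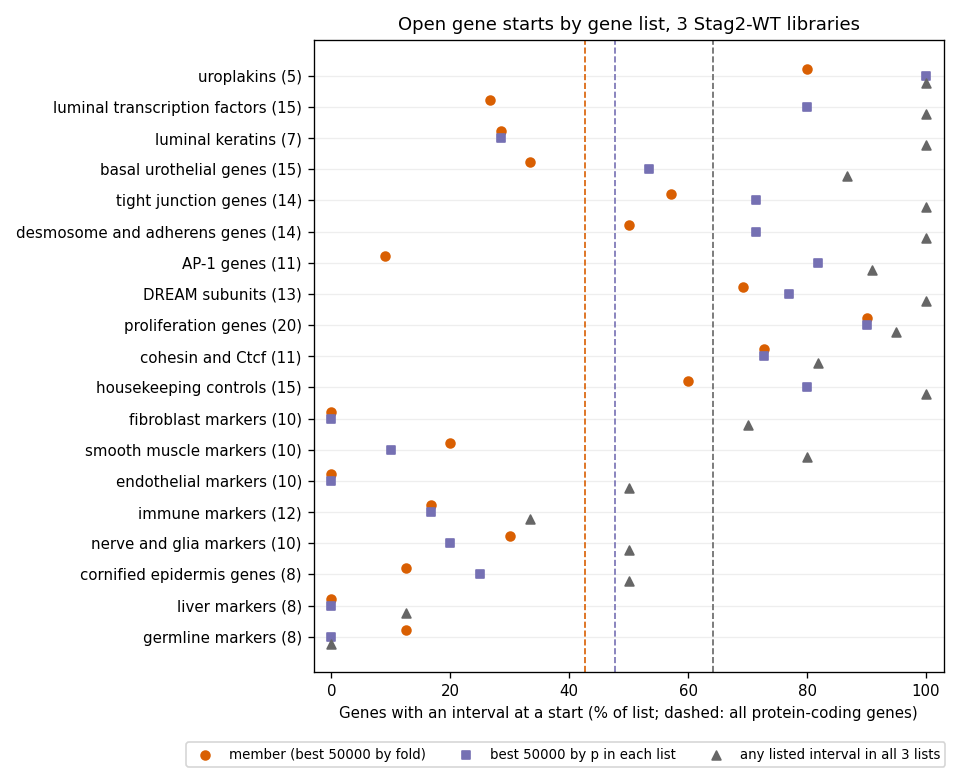
Share of the genes of each list (percent; number of genes in brackets) with a member at a start, with an interval among the best 50000 by p in each Stag2-WT list, and with any listed interval in all 3 lists; dashed lines give the same shares over 21887 protein-coding genes (42.7%, 47.8% and 64.1%). AP-1 genes and luminal transcription factors have 9.09% and 26.7% by fold but 81.8% and 80% by p, and the markers of other cell types lie at or under 30% by both.

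Families told by their symbols ranged from nearly closed to nearly all open. Of 1106 olfactory receptor genes, 3 (0.271%) held a member at the start, and of 353 vomeronasal receptor genes, 1 did (0.283%). None of 70 defensins or of 13 interferon alpha genes did. By contrast, members lay at 71 of 84 (84.5%) cytosolic ribosomal protein genes, 33 of 39 (84.6%) proteasome subunit genes, 66 of 78 (84.6%) mitochondrial ribosomal protein genes and 33 of 40 (82.5%) complex I genes. Zinc finger genes of the Zfp series had 278 of 394 (70.6%) and clustered histone genes 36 of 59 (61.0%). Keratins as a whole had 6 of 53 (11.3%), Hox genes 10 of 39 (25.6%), clustered protocadherins 2 of 57 (3.51%), cytochromes P450 19 of 98 (19.4%) and solute carriers 149 of 375 (39.7%), the last near the background of 42.7%. Ribosomal protein genes have many processed copies and histone genes near-identical ones, and how reads shared between copies were placed is not given in the sources used here.

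Members were unevenly spread over chromosomes. Autosomes carried 12.5 to 22.1 members per Mb of annotated span, with a median of 15.8. Chromosome 11 was densest at 22.1 per Mb, and chromosome 19 followed at 20.6. Per 100 protein-coding genes the autosomes had 121 to 249 members, lowest on chromosome 7 and highest on chromosome 18. Chromosome X stood apart with 704 members, or 4.13 per Mb and 72.9 per 100 genes, below every autosome by both measures. The share at gene starts was 39.1% on X, against 15.6% to 26.9% on the autosomes, and per 100 genes X had 28.5 members at gene starts and 44.4 elsewhere, against 40.4 and 145 on the autosomes. The lower number on X was thus mostly one of members outside gene starts. X members had median folds of 13.66, 22.47 and 16.57, against 13.32, 21.93 and 16.07 on autosomes, but median coverages of 134, 268 and 163 reads against 184, 350 and 224. The share of merged regions kept in all 3 libraries was 61.0% on X and 60.7% to 66.3% on autosomes. Chromosome Y had 4 members.

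**Figure D5:**
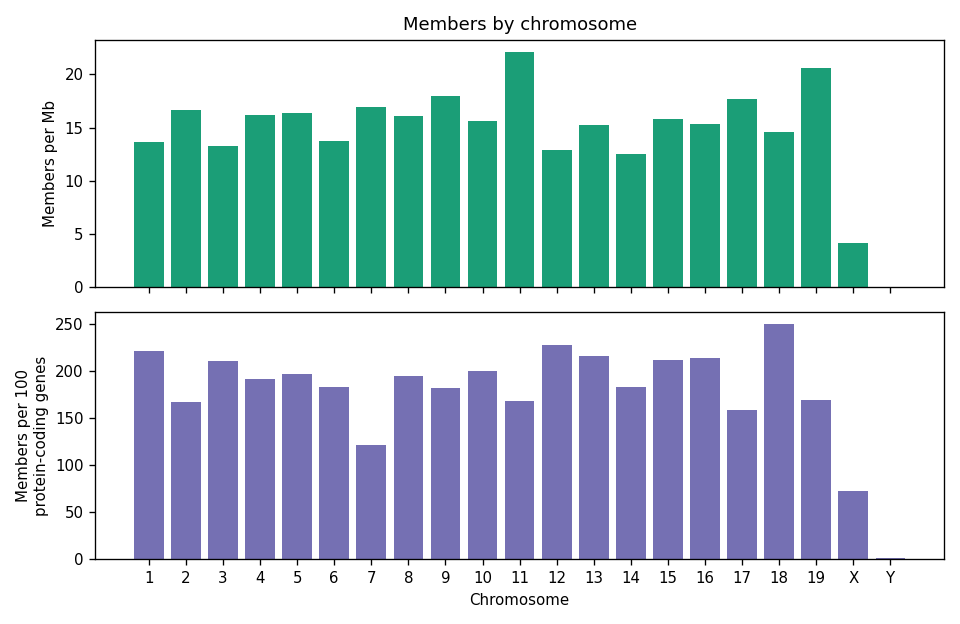
Members per Mb of annotated span (top) and per 100 protein-coding genes (bottom) for each chromosome, as bars from 0. Chromosome X is lower than all autosomes in both panels, at 4.13 per Mb and 72.9 per 100 genes, and Y has 4 members.

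Neighbouring members lay a median of 21748 bp apart, and all members together covered 25.2 Mb. Of 2414 windows of 1000000 bp with protein-coding genes, 278 (11.5%) had no member, and the median was 13. The densest window, with 63 members and 24 genes, was chr4:133000001-134000000, which holds Arid1a, a chromatin remodelling subunit often mutated in bladder cancer, and Sfn, the epithelial 14-3-3 sigma. Windows with 59 members each were chr11:116000001-117000000, with Itgb4, the hemidesmosome integrin, and Evpl, envoplakin, and chr17:35000001-36000000 in the major histocompatibility region. The emptiest windows by number of genes were clusters of olfactory receptors on chromosomes 10 and 2. The window chr10:129000001-130000000 had no member among 50 genes, and the windows that start at 86000001 and 87000001 of chromosome 2 had none among 49 genes each.

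At least 1 member was assigned to 15030 genes (68.7%). Long genes collected the most. Maml3, a co-activator of Notch signalling, had 32 over a span of 418 kb, or 7.66 per 100 kb, yet none at its start, where its folds were 5.32, 6.92 and 5.38. Arhgap26 had 29, Auts2 had 25, Rbms3 had 24, and Ank3 and Pde4d had 23 each. Gmds had 22, Arhgap24 and Nav2 had 21 each and Macrod2 had 20 over 1998 kb. Per 100 kb these genes ranged from 1.00 (Macrod2) to 7.66 (Maml3), so the count followed span only in part. Of the 10 genes, Maml3, Auts2, Rbms3 and Pde4d had no member at a start.

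Of the 3897 members of best mean rank, 23.9% lay at gene starts, close to the share of 22.1% over all members. How many copies of these sequences the genome holds was not examined. First was chr2:69355469-69355733, 12853 bp from the start of Abcb11, the bile salt pump, at rank 2 in every library with folds of 54.21, 51.92 and 56.88. Next was chr1:102628041-102628397, at ranks 3, 1 and 3 with folds of 44.24, 54.64 and 48.94, the region 2140123 bp from Cdh20. These 2 regions differed in depth between libraries. The region near Abcb11 had 1394, 554 and 1305 reads, fewest in replicate 2, while the Cdh20 region had 446, 647 and 528. Of the first 10 members, 2 lay at gene starts, those of Zfand6 and of Depdc1a. Depdc1a (chr3:159495144-159495721) had folds of 33.21, 47.96 and 37.81 at ranks 32, 40 and 33, and Zfand6 (chr7:84679272-84679596) had folds of 33.74, 47.37 and 40.71. Farther down among gene starts stood Trim21, an antibody receptor and ubiquitin ligase, at folds of 30.87, 48.34 and 37.37, and Espl1, which encodes separase, the protease that cuts cohesin, at 31.22, 46.22 and 35.58 with ranks of 98, 100 and 94. Kansl1, a subunit of a histone acetylase complex, had 33.03, 45.89 and 37.34.

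Ranking members by summit coverage, a view added after the values were seen, gave other regions. The most covered lay inside a gene span 32133 bp from the start of Gad2 (chr2:22588491-22590194), with 4332, 5482 and 4551 reads over a local background of 404, 259 and 384 reads. Second was chr12:97061369-97061853, 1197606 bp from the start of Galc, with 4124, 4408 and 4222 reads. In both regions the 3 libraries were close, whereas at the gene starts that followed replicate 2 had about the sum of the others. Derl2, a factor of protein export from the endoplasmic reticulum, had 1674, 3475 and 1910 reads, and Ifrd1 had 1688, 3573 and 1800. Map3k3, a signalling kinase, had 1621, 3180 and 1824 reads.

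The libraries placed the same regions differently in the order. The ranks of a member differed by more than a factor of 2 between libraries for 37.4% of members, and the median range of log2 ranks was 0.78. The summits of 94.7% of members lay within 50 bp of each other in all 3 libraries. Across members, which are not independent, the Spearman correlation of fold was 0.65 between replicates 1 and 2, 0.85 between 1 and 3 and 0.79 between 2 and 3, and that of coverage was 0.89, 0.94 and 0.92. These correlations run over regions that were selected for being high in all 3. Of the 7790 members in the best 5000 of at least 1 library, 2446 (31.4%) were in the best 5000 of all 3.

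The widest spread among members high in at least 1 library was at chr12:19953906-19954217, at ranks 30360, 13 and 25012 with 90, 409 and 112 reads. The region chrX:143482937-143483181, 35410 bp from the start of Pak3, a kinase gene, was first in replicates 1 and 3 and at rank 1793 in replicate 2, with 792, 276 and 812 reads. Regions near Nrp2, a co-receptor of semaphorins, and Nbeal1 were highest in replicate 2, at ranks 4 and 24. In the region near Gnb1l, replicate 1 was highest at rank 7 and replicate 2 lowest at 4241. In all 5, replicate 2 was thus either the highest or the lowest library. Among the most stable, the member inside Tead1, a factor of the Hippo pathway, had ranks of 3535, 3509 and 3511 with folds of 21.65, 34.46 and 25.37 (chr7:112852322-112852838), and one 240158 bp from Fn1, fibronectin, had ranks of 1381, 1408 and 1416.

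Of 7 hairpins of epithelial miRNAs, 4 had a member within 5000 bp, 3 of them in 1 cluster, against 332 of all 1005 hairpins in the table (33.0%). The mature forms of the miR-200 family, which maintains the epithelial state by silencing Zeb factors, and of miR-205 are shown to mark which share a seed. Capitals mark the seed, bases 2 to 8, and the sequences are those of RefSeq, GRCm38.p6.
mmu-miR-200b-3p: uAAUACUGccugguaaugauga
mmu-miR-429-3p: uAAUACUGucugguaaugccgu
mmu-miR-200c-3p: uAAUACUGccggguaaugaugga
mmu-miR-200a-3p: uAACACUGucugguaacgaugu
mmu-miR-141-3p: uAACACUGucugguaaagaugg
mmu-miR-205-5p: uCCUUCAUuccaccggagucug
The first 3 share the seed AAUACUG, the next pair AACACUG, and miR-205 has CCUUCAU. The hairpins of Mir200b, Mir200a and Mir429 lie together on chromosome 4. A member 3504 bp from Mir200b (chr4:156059255-156060302) had folds of 17.90, 22.34 and 20.37, and one 2902 bp from Mir429 (chr4:156050493-156051002) had ranks of 24401, 38057 and 28935. Mir205 on chromosome 1 had a member at 3272 bp (chr1:193503385-193504190) with folds of 14.41, 19.79 and 15.11. Mir200c and Mir141 on chromosome 6 had theirs at 5591 and 5183 bp (chr6:124711626-124712730), and Mir203, a miRNA of stratified epithelia, at 9206 bp.

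Of 6 hairpins known from other cell types and found in the table, 1 had a member within 5000 bp, against the same 33.0%. Mir206 of skeletal muscle had its nearest member at 12275 bp, Mir142 of blood cells at 13972 bp and Mir223 of myeloid cells at 120542 bp. Mir126a of endothelium was that one, with a member at 2297 bp, with folds of 9.08, 21.70 and 11.06. The ranks of this member were 38137, 20627 and 37634, best in replicate 2. Mir9-1 and Mir219a-1 of neural tissue had their nearest members at 5111 and 24254 bp. Mir1a-1, Mir133a-2, Mir143, Mir145a, Mir124a-1 and Mir122 were not in the table.

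Promoters with a member were rich in G, C and CpG, features that the choice of members did not use. The median GC content over 8785 promoter windows with a member was 61%, with an observed to expected CpG ratio of 0.786. Over 1451 windows among the best by p without a member the values were 64.7% and 0.782, over 3166 that were listed in all 3 libraries but were neither members nor among the best by p 60.7% and 0.620, and over 7836 not listed in all 3 libraries 47.3% and 0.193. The Alb window, with 3 CpGs, belongs to the last kind, whose median was also 3, while the Rplp0 window had 24 and the Upk3a window 9, against a median of 21 for promoters with a member. Krt13 had 5 CpGs in its window and was nonetheless among the stronger keratin starts.

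Short motifs were counted on both strands of the same windows, and none of the 14 motifs contains another. The GC box (GGGCGG) was found in 65.4% of promoters with a member, 14.7% of those not listed in all 3 libraries and 46.2% of all. In promoters among the best by p without a member its share was 72.8%, above that with a member. The ETS core (CCGGAAG) had 21.7%, 2.53% and 11.6% in the same order, and the NRF1 site had 11.4%, 0.740% and 6.38%. The E-box (CACGTG) had 10.9%, 4.13% and 7.84%, the CRE (TGACGTCA) 3.78%, 0.702% and 2.24%, the YY1 core (AAGATGGC) 5.03%, 1.26% and 3.05%, and the E2F site (TTTCGCGC) 0.740%, 0.0638% and 0.452%. These motifs were thus more frequent in promoters with a member than in those not listed in all 3 libraries. Among the best by p without a member the NRF1 site had 11.4% and the E2F site 0.896%, at or above the share with a member. The windows differ in base composition as given above. The part of base composition in these shares was not tested.

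The other motifs, except the CCAAT box, were less frequent in promoters with a member than in those not listed in all 3 libraries. The TATA box (TATAAA) was found in 6.22% of promoters with a member, 22.7% of those not listed in all 3 libraries and 12.6% of all. The CHR element (TTTGAA), 2 of which stand in the Ccnb2 window, had 11.3%, 24.0% and 16.0%. The AP-1 site (TGANTCA) had 5.48%, 9.32% and 6.99%, the TEAD site (GGAATG) 11.2%, 16.5% and 13.6%, and the GATA site (AGATAAG) 1.55%, 4.42% and 2.65%. The CCAAT box had 41.9%, 39.0% and 38.2%, and lower shares of 30.3% among the best by p without a member and 29.3% in those listed in all 3 that were neither. The GRHL site (AACCNGGTT) was rare at 0.228%, 0.281% and 0.254%. Sequence was read at gene starts only, and motifs of members away from gene starts were not analysed here.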

How the data were processed

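ATAC-seq peak lists of 3 Stag2-WT libraries were used, 1 per library. Per the submitters' processing notes, coordinates are of mm10, and DiffBind is named there. Which aligner and caller were run is not given in the sources used here. For each peak, the deposited lists give a ratio of summit to nearby coverage (the fold), −log10 p and −log10 q (the authors' p-value and q-value), a display score and a summit position, as the authors' caller wrote them. The score was not used. The values depend on depth, so they served only to describe and rank within a list. The lowest listed −log10 p was 2.00, and the kept intervals had a −log10 q of at least 33.3.

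Rows with equal coordinates were reduced to the one of highest fold, which removed 18.4% to 19.9% of rows. Each list kept its 50000 highest folds, ties went by position, and overlaps of at least 1 bp were merged. Summit coverage k and local background λ were recovered from fold = (k + 1) / (λ + 1) and the Poisson p, and k came out whole within 0.002 in −log10 p for 99.9994% of intervals. The depth of a library is known only through these values, and an interval of a few reads is imprecise by counting error alone.

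Gene names, spans and sequences came from RefSeq GRCm38.p6, whose coordinates are those of mm10. Starts were in the promoter table for 17492 of 21887 protein-coding genes (79.9%), and both span ends were used for the others. Exons and UTRs were not annotated in these tables. Windows were 500 bp either side, members were assigned to genes within 50000 bp, and neighbouring genes can share a window.

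Members, gene lists and families were chosen with earlier results of these data known, and the miRNAs, motifs and shown promoters after the files were read. Named genes were the list genes, the 10 members of best mean rank overall and outside gene starts, the 10 genes with most members, the 5 members of widest and of narrowest rank spread (best rank within 5000), the 5 regions either side of the list end and the 3 densest and emptiest windows. The strongest gene starts and the most covered members were added. Values of a few list genes are not reported here. No test was made. Steps used Python 3.11.15, NumPy 2.4.6, pandas 2.3.3, SciPy 1.17.1 and matplotlib 3.10.9. Merging was tested on simulated intervals against bedtools 2.31.1. Recovery was tested only on values simulated with the same formula, whose Poisson p was compared with that of SciPy. Other list lengths, rankings, overlaps, windows and gene starts, and leaving out each library, were tried.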

Additional observations from a re-analysis of the deposited data

How the results depend on the processing

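The number of members, their width and share at gene starts, the share of genes and the gene lists were recomputed under 15 settings at most, of which ranking by summit coverage and the other gene starts were chosen after seeing the data. The number of members was 18031 with 25000 intervals per library and 78712 with 100000, and 40810 to 43453 without 1 library. The share of members at gene starts was 25.1% and 16.2% at these lengths, 24.8% ranked by p, 25.9% by summit coverage, 19.6% with at least 2 of the 3 libraries, 23.3% with windows of 1000 bp, 20.4% by the strongest summit, 21.2% with either span end for every gene, 18.2% with only starts in the table and 20.5% to 21.8% without 1 library. The share of genes with a member at a start was 22.9% and 58.3% at the 2 lengths, 48.3% by p, 48.9% by summit coverage, 41.2% when each library had to cover 50% of the region, 47.2% with at least 2 libraries, 43.8% on autosomes, 44.6% with 1000 bp, 39.3% by the strongest summit, 41.6% with either span end and 43.7% to 44.9% without 1 library. The median width was 491 bp with 100000 intervals, 542 bp with at least 2 libraries and 522 to 548 bp without 1 library.

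Over the urothelial lists the share was 14.3% and 80% at the 2 lengths, 68.6% by p, 81.4% by summit coverage, 50% with at least 2 libraries, 35.7% by the strongest summit and 42.9% to 50% without 1 library. Over the lists of other cell types it was 5.26% and 28.9%, 15.8% with at least 2 libraries, 14.5% with 1000 bp, 7.89% by the strongest summit, 14.5% with either span end, 7.69% with only starts in the table and 11.8% to 13.2% without 1 library. Under all of these settings with both values the urothelial share was above that of the other cell types. Of 266 values for single lists, 212 stayed within 1.5 times and 54 did not. The 212 include those with −log10 q of at least 2, which could not differ because all kept intervals had at least 33.3. They also include lists without a holder that stayed so. Luminal transcription factors with a member numbered 12 by p and 14 by summit coverage. The cause was not tested. No paired analysis was possible because no test and no comparison of genotypes was made. The list length limits which open starts were called members, and no depth beyond the recovered coverage is known.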
